A study of Mus musculus with 2 samples.

Results

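Translation initiation and elongation factors are the proteins that load ribosomes onto mRNA and drive them along it. Their genes were taken by name: all transcript probes on both arrays whose gene name begins with Eif or Eef and then a digit, without Eif2s3x and Eif2s3y. That gave 59 genes with 135 probes among the 27574 gene names of the array. The names follow the array's design and include 4 Argonaute genes, once called Eif2c1 to Eif2c4 and now Ago1 to Ago4, which act in RNA silencing rather than in initiation. A gene counted as measured when a probe stood well above background for at least 1 genotype on both arrays, and its brightest such probe gave its value. Of the 59 genes, 53 were measured, all of them in all 4 channels and none saturated, out of 9397 measured genes in all.

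The RNA came from thymus of 6-month-old Pla2g10-Tg/+ mice, which overexpress group X secreted phospholipase A2 per the labels, and of littermate controls, all on the C57BL/6 background and on a standard diet. Each pool held RNA of 4 mice, and the labels used here do not name the promoter or the founder line of the transgene. Both pools were hybridised together on 2 two-colour Agilent arrays with exchanged dyes: on array 1 the transgenic RNA was red and on array 2 it was green. The labels do not say whether the arrays hold the same pools or separate ones. They were taken as a repeat measurement of 1 pair of pools, and on that reading the SD between them is technical. No test was made across animals, and no difference below has a check in separate mice.

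Initiation begins when eIF4E binds the cap of an mRNA and the scaffold eIF4G brings in eIF4A, a helicase that opens its leader. The small ribosomal subunit, carrying eIF1, eIF1A, eIF3, eIF5 and the initiator tRNA on eIF2, then scans to the start codon, after which eIF5B joins the large subunit. In elongation eEF1A delivers each aminoacyl-tRNA and eEF2 moves the ribosome forward. Dividing cells, young thymocytes among them, depend on a high output of this machinery.

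Many mRNAs for elongation factors and some for eIF3 and eIF4B belong to the terminal oligopyrimidine class, which starts with a run of C and T and is held under translational control by the kinase mTOR. The start sites of the 6 known members of the class with an entry, and of Eif1 and Eif1b, which were not listed in it, are printed because the values below are given separately for the class. Each run covers 5 bases before to 25 bases after the annotated start, 5′ to 3′ on the gene's strand, from RefSeq on GRCm38.p6, with capitals marking the longest stretch of at least 7 consecutive C or T.
Eef1a1, chr9:78481700-78481729, minus strand: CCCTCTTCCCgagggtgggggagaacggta
Eef2, chr10:81176626-81176655, plus strand: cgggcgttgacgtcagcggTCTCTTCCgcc
Eif3f, chr7:108934410-108934439, plus strand: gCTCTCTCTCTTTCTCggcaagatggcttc
Eif4b, chr15:102073768-102073797, plus strand: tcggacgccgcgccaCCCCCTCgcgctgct
Eef1b2, chr1:63176826-63176855, plus strand: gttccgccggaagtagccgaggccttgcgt
Eif3a, chr19:60790669-60790698, minus strand: gcggcggcgctgccgccgcgagggaatcac
Eif1, chr11:100319944-100319973, plus strand: cacaggggcggctatataagtgaatacagg
Eif1b, chr9:120492601-120492630, plus strand: gggctaaatacgcggcgccggccattttgt
Eef1a1 and Eif3f carry the stretch at the start itself, whereas in Eef2 and Eif4b it lies further in, so 4 of the 6 members of the class have one. Eef1b2, Eif3a, Eif1 and Eif1b have none in this window. Of the 47 members with an entry, 12 (25.53%) had such a stretch, against 18.71% of the 27025 genes of the table. On the other strand, where it reads as A and G, it was in 11 members (23.4%) and in 23.04% of all genes. A match is a description of these letters and no evidence that a transcript starts there.

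By the mean of both arrays, most translation factor genes read slightly lower in the transgenic thymus, and none differed strongly. Differences are given as the log2 of transgenic over control, for each array or as the mean of both ± the SD between them (n = 2 arrays). The median of the 53 measured genes was -0.077, with -0.073 on array 1 and -0.044 on array 2, while all measured genes had a median of -0.002, with 0.012 and -0.012 on the arrays. The gap between both medians was -0.074 over both arrays, -0.085 on array 1 and -0.032 on array 2. Across the members, the ratios on array 1 and array 2 had a Pearson correlation of -0.21, against 0.31 across all measured genes. In 38 of 53 members (71.7%) the mean lay below 0, against 50.7% of all measured genes. The range ran from -0.34 for Eif1 to 0.26 for Eif3e, or from 0.790-fold to 1.19-fold. The plot of cumulative shares shows the members left of all genes over most of the range.

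**Figure D1:**
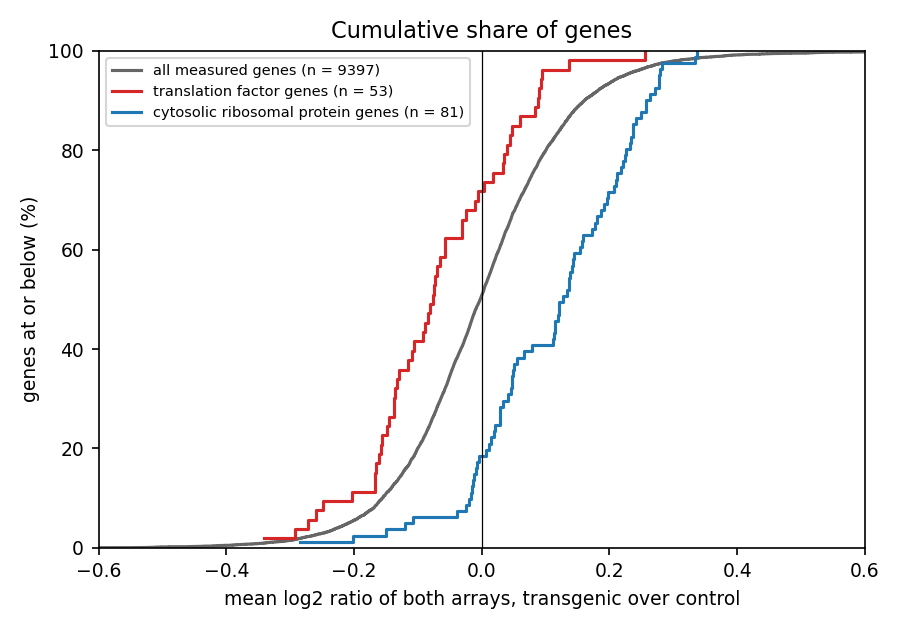
Cumulative share of genes (percent, vertical axis) at or below a mean log2 ratio of transgenic over control (horizontal axis), for all 9397 measured genes in grey, the 53 measured translation factor genes in red and 81 cytosolic ribosomal protein genes in blue. The red line crosses 0 at 71.7%, the grey line at 50.7%, and the blue line lies to the right with a median of 0.13.

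No member passed the size rule of at least 0.25 with the same sign on each array. It called 0 members higher, where 1.68% of all measured genes were, and 0 lower, where 1.31% were. Those counts used an offset of 50 units added to each channel. With an offset of 0, Eef1e1, Eif1, Eif2s1 and Eif4a3 were lower by the same rule (7.55%, against 4.15% of all genes) and 0 members were higher (against 5.82%). By the deposited software ratios it took Eef1e1, Eif1 and Eif2s1 as lower (5.66%, against 5.08%) and 0 as higher (against 6.96%). With the mean over all measured probes of a gene, Eif1 was lower (1.89%, against 1.11%) and 0 members were higher (against 1.46%). On array 1 alone, 10 members lay at or below -0.25 (18.9%, against 7.19%) and 1, Eif3e, at or above 0.25 (1.89%, against 9.17%). On array 2 alone, Eef1e1, Eif3j1 and Eif4e were that low (5.66%, against 5.14%) and Eef2, Eif4a2 and Eif5a that high (5.66%, against 4.3%). Eef2 and Eif5a were thus low on array 1 and high on array 2. A looser rule of at least 0.1 on each array, chosen after the values were seen, found 1 member higher, Eif3e (1.89%, against 10% of all genes). In the other direction it found 7 members lower, namely Eef1e1, Eif1, Eif1ax, Eif1b, Eif2s1, Eif4a3 and Eif4b (13.2%, against 8.91% of all genes). Without a size limit, 25 members read lower on both arrays (47.2%, against 29.1%) and 9 read higher on both (17%, against 28.3%). No member reached 2-fold, a size that 0.0319% of all genes reached upward and 0% downward. With the arrays entered as separate measurements, limma called 0 members in either direction at an adjusted p under 0.05, against 0.915% of all genes higher and 0.5% lower. Unadjusted p-values under 0.05 were found for 7 members, a share of 13.2%, and for 12.4% of all genes, and the lowest adjusted p of a member by limma was 0.093, for Eif1.

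**Figure D2:**
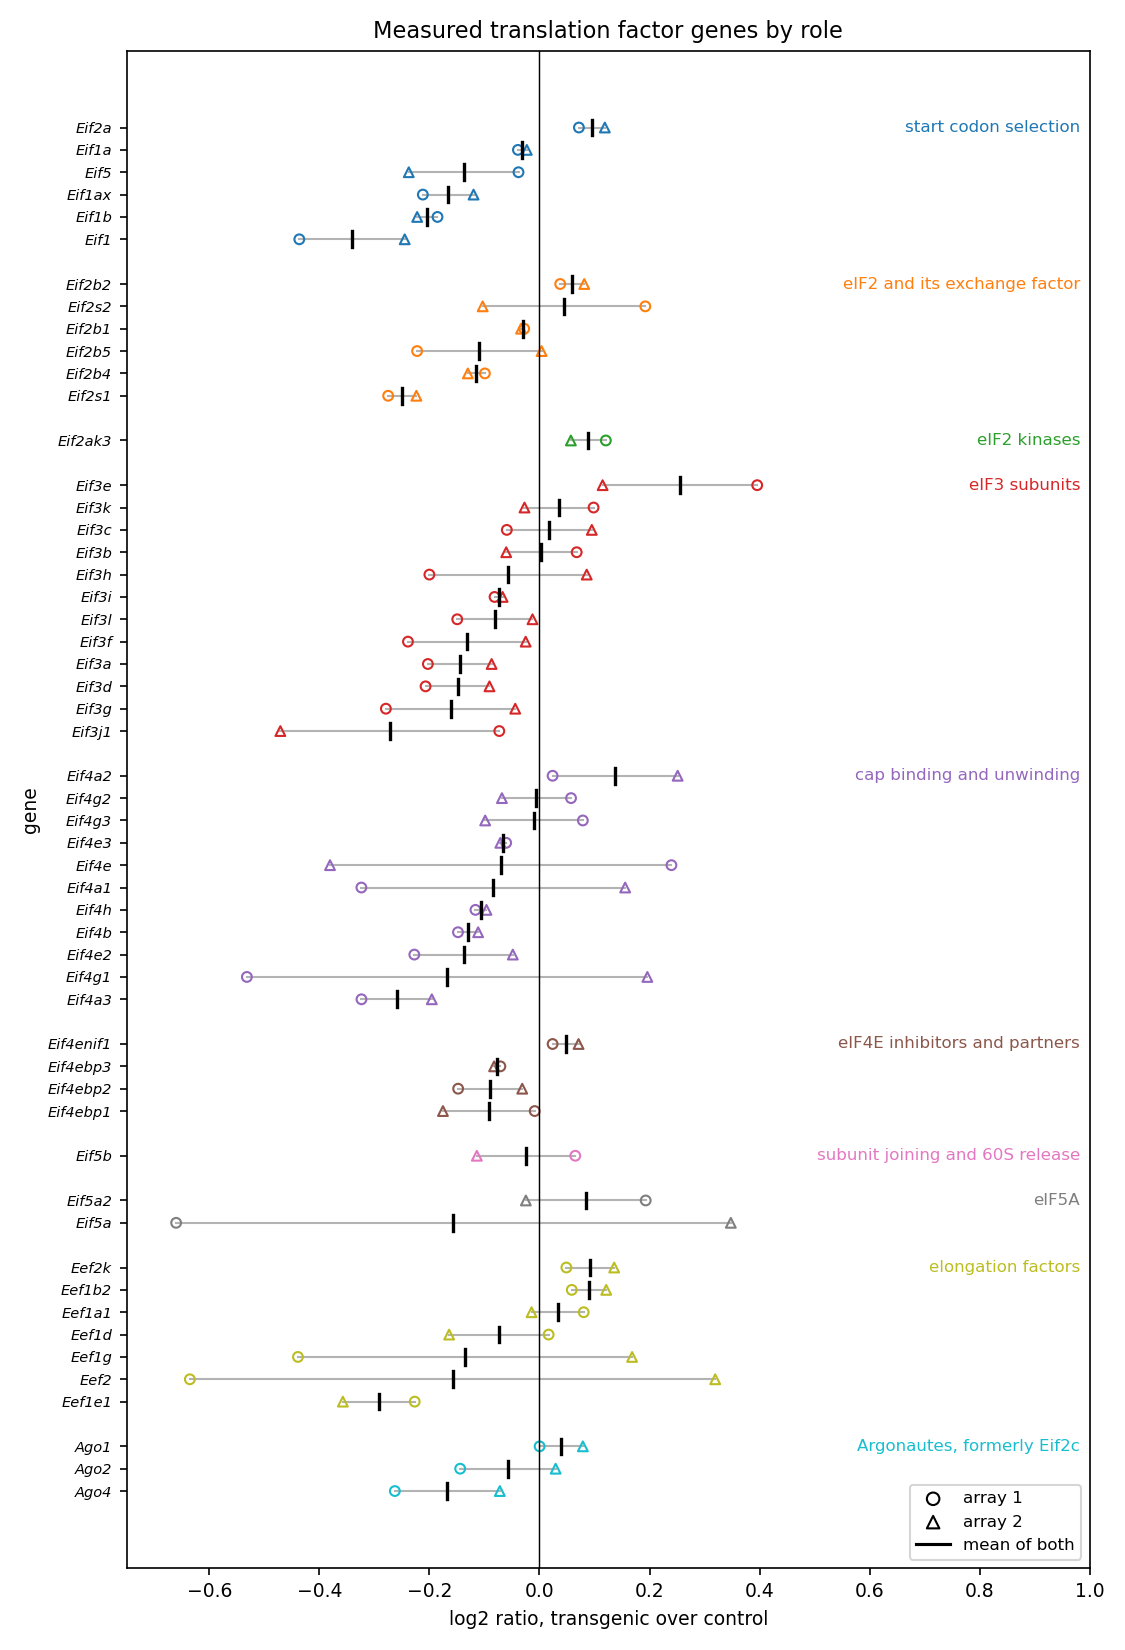
Log2 ratio of transgenic over control (horizontal axis) for each of the 53 measured genes (vertical axis), grouped by role, with array 1 as circles, array 2 as triangles, a grey line between them and a black tick at their mean. Eif1 has the lowest mean at -0.34 and Eif3e the highest at 0.26, and the widest gaps between arrays belong to Eif5a and Eef2.

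Of the 6 measured factors that select the start codon, 5 lay below 0, and their median was -0.15. With the mean over all measured probes of a gene in place of the brightest, that median was -0.073. Eif1, which keeps the scanning ribosome from settling on wrong start codons, read 2165 and 2186 units in the transgenic pool on arrays 1 and 2 and 2930 and 2590 in the control pool, as normalized intensity. Both transgenic values lay below both control values, and the log2 ratios were -0.44 and -0.24, or -0.34 ± 0.14. Its probe (A_51_P283837, NM_011508) lies at chr11:100137465-100137525 on mm8, the build of the file headers. A dimmer Eif1 probe had a mean of -0.23, but its listed position is on another chromosome than the gene.

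Eif1b, a close relative of Eif1, read 674 and 637 units in the transgenic pool and 767 and 744 in the control pool. The groups did not overlap, and the arrays gave nearly the same ratio, -0.19 and -0.22 (-0.20 ± 0.03). Eif1ax, which stabilises the scanning complex and is listed as Eif1ay on the array, read 535 and 543 units against 620 and 590 in controls, again without overlap. Its mean was -0.17 ± 0.07, and its dimmer probe gave -0.06. Eif5, which triggers GTP hydrolysis by eIF2, had a mean of -0.14 ± 0.14, with probes from -0.14 to 0.05. Eif1a stood at -0.03 ± 0.01. Eif2a, an alternative carrier of initiator tRNA and no subunit of eIF2, was the exception, with 109 and 117 units in the transgenic pool and 104 and 108 in the control pool (0.10 ± 0.03).

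eIF2 carries the initiator tRNA, and its exchange factor eIF2B reloads it with GTP. These genes had a median of -0.070, with 4 of 6 below 0. Eif2s1, the alpha subunit that the stress kinases phosphorylate, read 174 and 181 units in the transgenic pool and 211 and 211 in the control pool. The groups did not overlap, at -0.28 and -0.22 (-0.25 ± 0.04), although a dimmer probe of the gene gave only -0.06. With the mean over its measured probes the gene read -0.16 ± 0.06. Its brighter probe lies at chr12:79803741-79803800 on mm8. Eif2s2, the beta subunit, gave 0.19 and -0.10 (0.04 ± 0.21), so its arrays disagreed in sign, while a dimmer probe read higher on both, 0.38 and 0.12. Among the eIF2B subunits the means ran from -0.11 for Eif2b4 and Eif2b5 to 0.06 ± 0.03 for Eif2b2, and Eif2b3 was not measured.

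Of the 4 eIF2 kinases, which shut down initiation under stress, Eif2ak3 alone was measured. This kinase of the endoplasmic reticulum, also called PERK, read 145 and 147 units in the transgenic pool and 133 and 141 in the control pool (0.09 ± 0.04). Eif2ak1, Eif2ak2 and Eif2ak4 did not meet the criterion for a measured gene. Eif2ak1 and Eif2ak2 stood well above background in the red channel only, on both arrays and therefore once for each genotype, so no ratio is drawn from them.

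Over the 12 measured subunits of eIF3, the large complex that bridges the small ribosomal subunit and the mRNA, the median was -0.078 and 8 lay below 0. Eif3e was the highest member of all, with 722 and 666 units in the transgenic pool and 549 and 615 in the control pool. The groups did not overlap, but the arrays differed in size, 0.40 against 0.11 (0.26 ± 0.20), and a dimmer probe gave 0.09. Its probe lies at chr15:43080188-43080247 on mm8. At the other end, Eif3j1, a loosely bound subunit, read 244 and 224 units against 257 and 311 in controls, a ratio of -0.07 on array 1 and -0.47 on array 2 (-0.27 ± 0.28). Its 3 measured probes ranged from -0.27 to 0.11 and are listed on another chromosome than Eif3j1, where RefSeq places the copy Eif3j2, so signal from the copies cannot be told apart. The other subunits lay between -0.16 for Eif3g and 0.04 for Eif3k.

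The cap-binding and unwinding group had 10 of 11 genes below 0 and a median of -0.084. Eif4a3, a helicase related to eIF4A that sits in the exon junction complex, was lowest, with 141 and 149 units in the transgenic pool and 177 and 171 in the control pool. Its transgenic values lay below both control values, at -0.32 and -0.20 (-0.26 ± 0.09), from a probe at chr11:119109689-119109748 on mm8. Eif4b, which stimulates the helicase, read 170 and 166 units against 189 and 180 (-0.13 ± 0.03), and its dimmer probe gave 0.02. Eif4a2, a helicase paralogue of Eif4a1, was the only one of the 11 above 0 by the brightest probe. It read 392 and 395 units against 385 and 332 (0.14 ± 0.16). Its ratio came almost wholly from array 2, 0.25 against 0.02, and its dimmer probe gave -0.01. Eif4g2 (-0.005 ± 0.09) and Eif4g3 (-0.01 ± 0.13) counted as below 0 but lay close to it. Dimmer Eif4g2 probes had means of 0.26, with 0.26 and 0.25 on the arrays, and -0.006, and a dimmer Eif4g3 probe had -0.08. Eif4e, the cap-binding protein itself, pointed in opposite directions, 0.24 on array 1 and -0.38 on array 2 (-0.07 ± 0.44).

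**Figure D3:**
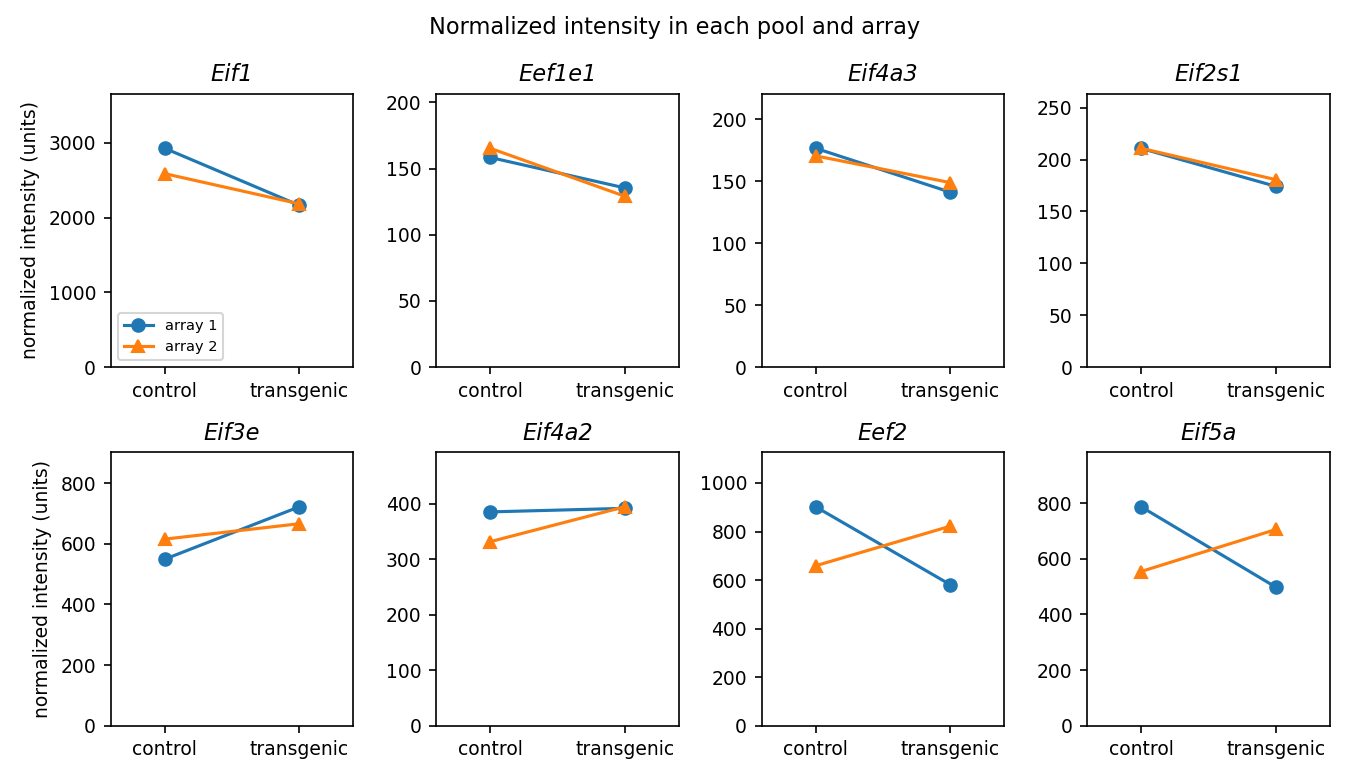
Normalized intensity in units (vertical axis, from 0) of 8 genes in the control and the transgenic pool, with array 1 as blue circles and array 2 as orange triangles, each line joining the pools of 1 array. Eif1, Eef1e1, Eif4a3 and Eif2s1 go down on both arrays, Eif3e and Eif4a2 go up on both, and the lines of Eef2 and Eif5a cross.

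The genes that restrain eIF4E differed little. Eif4ebp1, a repressor released from eIF4E when mTOR phosphorylates it, read 103 and 100 units in the transgenic pool and 104 and 113 in the control pool (-0.09 ± 0.12). Eif4ebp2 and Eif4ebp3 gave -0.09 ± 0.08 and -0.08 ± 0.01. Eif4enif1, which shuttles eIF4E into the nucleus, was the only one of the 4 above 0, at 0.05 ± 0.03. Eif5b, the factor of subunit joining, gave -0.02 ± 0.13 with opposite signs on the arrays.

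The elongation factors ran from -0.29 for Eef1e1 to 0.09 for Eef2k, with 4 of 7 below 0. Eef1e1, which is a scaffold component of the aminoacyl-tRNA synthetase complex, was the second lowest member, with 135 and 129 units in the transgenic pool and 158 and 165 in the control pool. Both transgenic values lay below both control values, at -0.23 and -0.36 (-0.29 ± 0.09), and its only probe (A_51_P164420, NM_025380) lies at chr13:38653675-38653734 on mm8. Eef1a1 read 9483 and 9099 units in the transgenic pool and 8970 and 9190 in the control pool. These overlapped, and the mean was 0.03 ± 0.07. A dimmer Eef1a1 probe read -0.53 on array 1 and 0.29 on array 2, a mean of -0.12, so the probes of this gene differed. Eef1b2, part of the exchange factor of eEF1A, gave 0.09 ± 0.04, and Eef2k, the kinase that inactivates eEF2, gave 0.09 ± 0.06. With an offset of 0 and by the software's ratios, Eef2k read 0.24 and 0.29 and Eef1e1 read -0.46 and -0.49, while Eef1a1 was at -0.01 by the software's ratios. For this role the median of the 7 means was -0.074, although the arrays taken singly had medians of 0.017 and 0.12, so no direction is given for it.

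Eef2 and Eif5a had ratios of opposite sign on the arrays, so they gave no common direction for the genotype. The dyes were exchanged between the arrays, so dye, array and, if they were separate, pools cannot be told apart here. Eef2, the translocase, read 581 units in the transgenic and 902 in the control pool on array 1, but 822 and 659 on array 2. Its ratios were -0.64 and 0.32, a mean of -0.16 ± 0.68. Eif5a, whose hypusine-modified protein relieves stalled ribosomes, read 498 and 787 units on array 1 and 705 and 554 on array 2, with ratios of -0.66 and 0.35 (-0.16 ± 0.71). In both genes the green channel was the brighter one after normalization, by at least 0.25 on each array, which 0.309% of all measured genes showed. Before normalization the red channel was the brighter one, with 787 units against 729 for Eef2 on array 1 and 823 against 550 on array 2. For Eif5a these were 661 against 636 and 691 against 480. No member leaned that far to red, where 0.234% of all genes did. Second probes of Eef2 and Eif5a gave -0.64 and 0.23, and -0.48 and 0.13, on arrays 1 and 2. The brightest probes of Eif4g1, the scaffold (-0.53 and 0.20), Eef1g (-0.44 and 0.17) and Eif4a1 (-0.32 and 0.16) had the same pattern, short of the limit on array 2. A dimmer Eef1g probe went the other way, with 0.16 and -0.12. Dimmer Eif4a1 probes read 0.12 and -0.05, and -0.40 and -0.03. For the brightest probes of these genes, only the mean over both arrays is then left as a value, and it rests on the cancelling of a larger difference between the arrays. In 27 of the 53 members the SD between arrays was larger than the mean. This was not particular to them. All measured genes had a median SD between arrays of 0.090 and a median size of the mean of 0.079. The members had 0.092 for both.

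**Figure D4:**
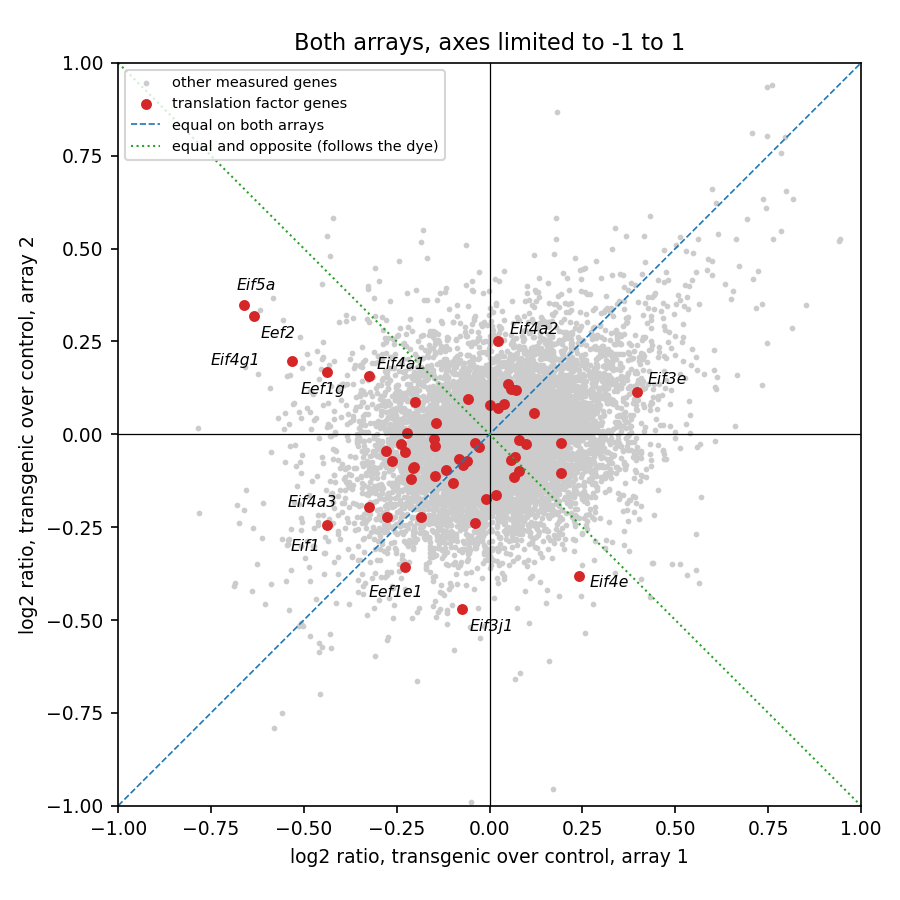
Log2 ratio of transgenic over control on array 1 (horizontal axis) against array 2 (vertical axis), both from -1 to 1, for translation factor genes in red and other measured genes in grey, with the dashed line marking equal and the dotted line equal and opposite ratios. Eif1, Eef1e1 and Eif4a3 sit in the lower left with both ratios below 0, while Eef2 and Eif5a sit in the upper left with ratios of opposite sign.

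Normalized levels of the genotypes did not overlap over the 4 channels in 28 members, 6 with the transgenic pool higher (11.3%, against 23% of all measured genes) and 22 with it lower (41.5%, against 24%). Of the 26 members with at least 2 measured probes, 11 had all probes below 0, 3 had all above 0 and 12 had probes of both signs.

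The 10 members known to belong to the terminal oligopyrimidine class had a median of -0.10, 3 of them above 0, and the other 43 had a median of -0.077. By array, the medians of the class were -0.17 and 0.036, so its arrays disagreed in sign, and Eef2 and Eef1g are in it. Cytosolic ribosomal protein genes, whose mRNAs belong to the same class, lay above 0 in 66 of 81 cases, and their median was 0.13, or 0.070 on array 1 and 0.16 on array 2.

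Of 44 other translation genes (regulators, release, recycling and mitochondrial factors), 42 were measured. Their median was -0.051, and 29 lay below 0 (69.0%, against 50.7% of all measured genes). By the rule of at least 0.25 on each array, 1 of them was lower, where 1.31% of all measured genes were. By the same rule 0 were higher, where 1.68% of all measured genes were. The lower gene was Tufm, the mitochondrial elongation factor Tu, with 260 and 284 units in the transgenic pool and 329 and 383 in the control pool (-0.39 ± 0.06). Next lowest was Gspt1, the release factor partner eRF3a, at -0.22 ± 0.07. Mtor, the kinase that governs the terminal oligopyrimidine mRNAs, was the highest at 0.24 ± 0.31, with 0.46 on array 1 and 0.03 on array 2. Impact, which restrains activation of the kinase encoded by Eif2ak4, gave 0.16 ± 0.28.

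Whole thymus was measured, so fewer cells of a type and less RNA per cell cannot be told apart in any value above. Markers of immature thymocytes read lower in the transgenic pool, with 9 of 11 measured genes below 0 and a median of -0.31. Their summed signal without dye normalization was 15137 to 37122 units in the transgenic pool and 22261 to 42853 in the control pool. Rag1 (-0.31 ± 0.04) and Cd8a (-0.51 ± 0.001) were among the lower ones, and Rag2 was not above background in any channel. Not all of these markers were lower: Cd4 (0.02 ± 0.002), Cd1d1 (0.03 ± 0.03) and Satb1 (-0.01 ± 0.05) lay near 0. General T cell genes had a median of -0.14, with 6 of 7 below 0. Markers of other cells were higher: 6 of 10 adipocyte genes were measured, all above 0 with a median of 0.75, and their summed signal was 1048 to 2075 units against 654 to 900. Plin1, Retn and Lep were not above background in any channel. Neutrophil genes (5 of 7 measured, median 0.37), erythroid genes (2 of 5, median 0.58) and genes of medullary epithelium (4 of 5, median 0.50) were also all above 0, with Ngp, Elane, Slc4a1 and Cldn4 not well above background in any channel. The part of these cell types in the lower values of the translation factors was not tested.

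The other members without a measured value were Ago3 and Eef1a2, the elongation factor 1 alpha gene of muscle and neurons. Of 6 marker genes of those tissues, 1 was measured, Tubb3, and Acta1, Ckm, Myh1, Tnnt3 and Snap25 were well above background in no channel. The measured Argonaute genes were Ago1 at 0.04 ± 0.06, Ago2 at -0.06 ± 0.12 and Ago4 at -0.17 ± 0.13, which became -0.39 with an offset of 0 and -0.41 by the software's ratios. Without the Argonautes the median of the translation factors was -0.079, over 50 genes.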

How the data were processed

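Pooled thymus RNA of each genotype (labelled from 500 ng) was measured on 2 arrays, taken as 1 pool each, which the labels do not settle. Per the file headers, the authors' scanner files come from Feature Extraction 9.5.1.1 and hold the mean and background intensity of each spot and channel, and a processed intensity. The deposited LogRatio and the series table are log10 of red over green processed signal, neither centred nor turned for the dye swap, as the files showed at 100% of spots (series medians -0.109 and -0.0989). Each array had 41534 transcript spots. On array 1, 34.1% were well above background in the transgenic and 29.0% in the control channel, and on array 2, 28.5% and 33.2%.

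Mean intensity was corrected with normexp (offset 50) and normalized by loess in limma 3.58.1 (R 4.3.3). Control spots had weight 0, and 46 and 37 outlier spots were left out. Replicate spots were averaged, and array 2 was turned to read transgenic over control. Of 41174 probes, 12234 were measured. Normalized intensity per channel was scaled between arrays with Aquantile. The offset shrinks ratios of dim genes, and the number of arrays limits the precision. Symbols were updated through a RefSeq table of GRCm38.p6 (58 of 59 members by accession, 17 with a new symbol). Probe positions are on mm8 and were not annotated here. The limma p-values, adjusted over all 9397 measured genes by the Benjamini-Hochberg method, treat the arrays as separate measurements and on that reading cover technical spread only. The steps were tested on simulated dye-swapped arrays with a dye trend that followed intensity. The simulation held no dye effect of single genes, so it does not cover patterns like those of Eef2 and Eif5a.

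Named genes were those passing the 0.25 rule, the 6 highest and 6 lowest, and the highest and lowest of each role. Of the other translation genes, the called ones were named, with the 2 highest and 2 lowest. The known terminal oligopyrimidine members were taken as a class, and not all of them are named with a value. Other genes were singled out after their values were seen. The members and all lists were chosen with earlier results of these data known. Alternatives were the background correction, the normalization, the filter on dim probes, the choice of probe, each array left out, the software's ratios and limma.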

Additional observations from a re-analysis of the deposited data

How the results depend on the processing

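The median of the translation factor genes stayed below 0 in every setting tried. It was -0.099 with an offset of 0, -0.12 with median centring, and -0.11 by the deposited ratios of the software and of the series table. Left with 1 array it ran from -0.073 (array 1) to -0.044 (array 2). All measured genes had a median of -0.035 with median centring, where 81.1% of members and 61.1% of all genes lay below 0. Members lower by at least 0.25 on each array numbered 4 with an offset of 0 (7.55%, against 4.15% of all genes). They numbered 3 by either deposited ratio (5.66%, against 5.08% by the software's). With the mean over probes there was 1, Eif1 (1.89%, against 1.11%). The 0.1 rule, chosen after the values were seen, gave 7 lower (13.2%, against 8.91%) and 1 higher (1.89%, against 10%). On array 1 alone, 10 were lower (18.9%, against 7.19%) and 1 higher (1.89%, against 9.17%). On array 2 alone, 3 were lower (5.66%, against 5.14%) and 3 higher (5.66%, against 4.3%). Genes at least 2-fold higher, 3 in all, became 26 at offset 0, 1 with median centring, 33 by either deposited ratio, and 86 called by limma without a size limit. Those lower, 0 in all, became 1, 5 (software and series table) and 47 (limma). The other translation genes moved to -0.078 with median centring and -0.087 with the software's ratios, and ran from -0.054 to -0.024 with 1 array left out. The cause of these moves was not tested.

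Of the role medians, start codon selection was -0.22 with median centring and -0.073 with the mean over probes. eIF2 and its exchange factor was -0.087 with an offset of 0, -0.075 without background correction, -0.11 with median centring, -0.090 by the software's ratios and -0.075 without a filter on dim probes. The eIF2 kinases gave 0.14 at offset 0, 0.16 by the software's ratios and -0.020 without the filter, which adds 3 dim genes. Cap binding gave -0.14 with median centring and -0.12 with the software's ratios, and the eIF4E inhibitors gave -0.12 with an offset of 0, -0.098 without background correction, -0.11 with median centring and -0.14 with the software's ratios. With 1 array left out, these medians ran from -0.068 to -0.064 (eIF2), from -0.12 to -0.071 (cap binding), from -0.057 to -0.040 (eIF4E inhibitors) and from 0.017 to 0.12 (elongation factors). Of the 20 genes followed, 0 turned in sign in the settings with both arrays, 2 on array 2 alone and 1 on array 1 alone. Other genes moved by over 1.5 times with an offset of 0 and by the software's ratios were Eif2a (0.18 and 0.19), Eif2ak3 (0.14 and 0.16), Eif2b5 (-0.19 and -0.18), Eif4ebp1 (-0.19 and -0.19), Eif4ebp3 (-0.14 and -0.17), Eif4enif1 (0.093 and 0.11), Eif4g1 (-0.26 and -0.28), Eif5a2 (0.16 and 0.16), Ago1 (0.10 and 0.083), Eif1a (-0.070 and -0.10) and Eif4e (-0.11 and -0.12). Each array holds both genotypes, so its ratio is itself the paired difference. The limma fit used these ratios, and no separate paired analysis was made.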
